A study of Mus musculus with 4 samples.

Results

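The Gadd45 family of the mouse has 3 genes, Gadd45a, Gadd45b and Gadd45g. They were chosen by name: every probe set that the platform annotation assigns to these symbols was taken, which gave 3 of the 18193 genes named on the array and 5 probe sets, of which Gadd45b has 3. All 5 probe sets lay above the low-signal filter used here, a mean of the log2 values at or above the median of all probe sets, which corresponds to a signal of about 120.0. Messenger RNA was measured in the liver of C57BL/6J mice aged 2 months after injections of the aromatic solvent ethylbenzene or of phosphate-buffered saline (PBS), on 4 Affymetrix arrays. In a group's name the letter for the first exposure stands before that for the second. E+E mice had ethylbenzene both times, P+E mice had PBS and then ethylbenzene, E+P mice had ethylbenzene and then PBS, and P+P mice had PBS both times. The first exposure consisted of 2 injections into the peritoneum with 24 h between them. The second came after 7 days of normal feeding, and livers were collected 5 h later. Ethylbenzene was given at 7 mmol per kg each time. The RNA of 5 mice was pooled for E+E, 5 for P+E, 3 for E+P and 3 for P+P, and each pool was measured on 1 array. There were therefore no replicates, no difference could be set against the spread between animals, and no p-value is given. Pool size follows the second exposure and cannot be told apart from it.

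GADD45 proteins are small acidic proteins without an enzymatic activity of their own that act by binding other proteins. Known partners include the kinase MAP3K4, which lies upstream of the stress kinases p38 and JNK, the replication clamp PCNA, the cell cycle inhibitor p21 (the product of Cdkn1a) and the mitotic kinase CDK1. The genes are short and are switched on within hours by DNA damage, cytokines and other stresses. Gadd45a was first described as a gene of growth arrest and DNA damage. Gadd45b (also called Myd118) was described in myeloid differentiation, and in mouse liver it is known as a gene induced early in regeneration and by activators of the nuclear receptor CAR. Gadd45g (also called CR6) was described as a cytokine-responsive gene.

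The sequences around the 3 start sites are shown because the 3 genes were high on the same arrays. All 3 were matched by symbol. Each is the RefSeq window of 300 bases on build GRCm38.p6, 250 before and 50 from the start site, given 5′ to 3′ on the strand of the gene. Capitals mark the CCAAT box (CCAAT), the TATA box (TATAAA), the E-box (CACGTG) and the C/EBP-ATF core (TTGCATC). Gadd45a lies at chr6:67037358-67037657 on the minus strand, Gadd45b at chr10:80929841-80930140 on the plus strand and Gadd45g at chr13:51846425-51846724 on the plus strand.
Gadd45a: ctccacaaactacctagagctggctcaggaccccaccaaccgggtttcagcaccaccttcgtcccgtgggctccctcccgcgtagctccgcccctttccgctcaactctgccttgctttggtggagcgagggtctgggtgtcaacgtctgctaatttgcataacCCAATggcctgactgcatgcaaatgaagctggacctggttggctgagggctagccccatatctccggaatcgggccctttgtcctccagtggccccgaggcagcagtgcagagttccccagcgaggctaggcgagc
Gadd45b: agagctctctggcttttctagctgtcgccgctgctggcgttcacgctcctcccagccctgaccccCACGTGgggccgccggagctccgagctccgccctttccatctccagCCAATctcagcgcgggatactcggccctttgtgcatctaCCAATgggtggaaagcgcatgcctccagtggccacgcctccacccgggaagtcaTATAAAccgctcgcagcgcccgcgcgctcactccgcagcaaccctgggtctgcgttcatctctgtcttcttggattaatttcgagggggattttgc
Gadd45g: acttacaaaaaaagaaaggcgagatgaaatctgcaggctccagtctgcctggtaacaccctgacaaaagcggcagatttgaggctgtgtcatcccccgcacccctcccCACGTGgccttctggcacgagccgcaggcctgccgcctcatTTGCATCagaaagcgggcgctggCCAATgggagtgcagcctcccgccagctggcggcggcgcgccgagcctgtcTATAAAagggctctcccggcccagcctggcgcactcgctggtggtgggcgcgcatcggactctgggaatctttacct

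Matches were counted for 8 motifs on both strands, beside their share among 27025 mouse promoter windows of the same length. All 3 Gadd45 windows held the CCAAT box on the gene strand, which 37.9% of windows hold on either strand. It began at -86 in Gadd45a, at -139 and -100 in Gadd45b and at -78 in Gadd45g. The TATA box was found in Gadd45b, beginning at -46, and in Gadd45g, beginning at -27, but not in the Gadd45a window, and 14.2% of windows hold it. The E-box stood in the windows of Gadd45b, from -185, and Gadd45g, from -142, against 7.24% of windows. The Sp1 box (GGGCGG) was found on the opposite strand in Gadd45a and Gadd45b, from -163 and -158, and 35.9% of windows hold it. The C/EBP-ATF core was found in Gadd45g alone among the 3, from -101, and in 2.51% of windows. An AP-1 site (TGANTCA, in 7.93% of windows), the CRE core (TGACG, in 21.0%) and an NF-kB core (GGGACTT, in 5.42%) were in none of the 3 windows. The matches in these windows did not overlap one another. A match of letters is a description of the window and not a binding site.

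The arrays differed in ways that bear on the values below. The deposited signals had been scaled to the same trimmed mean on every array, 500.0 after removal of the lowest and highest 2% of probe sets. The P+P array stood apart in its 18S ribosomal RNA controls, with a geometric mean signal of 1872 over 3 probe sets against 122 to 182 on the other arrays. For Actb the signal of the 3′ control probe set over that of the 5′ one ranged from 3.48 to 4.55 and was highest on P+P, and that of Gapdh from 0.91 to 1.06. Hepatocyte markers were high on every array, with a summed normalized signal of 10 measured markers between 1019810 and 1102570. Ass1 was dim among them, with deposited signals from 164 to 348. Apob was lower on P+P, with a deposited signal of 28499, against 63097 on P+E, 79436 on E+P and 84226 on E+E. Its log2 ratio of normalized signals, E+P over P+P, was 1.57, where the median of the 10 markers was 0.03.

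After the second exposure all 3 Gadd45 genes were far higher on the ethylbenzene arrays than on the PBS arrays, whether the mice had received PBS or ethylbenzene first. On the scale used here, log2 of the quantile-normalized signal plus 43.2, Gadd45a was 17.1-fold, Gadd45b 12.3-fold and Gadd45g 11.5-fold higher on P+E than on P+P. On E+E against E+P the same genes were 9.80-fold, 12.7-fold and 6.43-fold higher. These ratios rest on 4 different arrays, 2 for each, so they share none. By the fixed rule of size, at least 2-fold, 3 of 3 genes passed it upward in both ratios, where 6.53% of the 11513 genes past the filter were so on P+E over P+P, 6.91% on E+E over E+P and 2.87% in both. In order of size among these genes, Gadd45a ranked 17, Gadd45b 23 and Gadd45g 26 for P+E over P+P, and they ranked 35, 21 and 64 for E+E over E+P. The median ratio of all genes was -0.07 and -0.05 on the log2 scale.

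**Figure D1:**
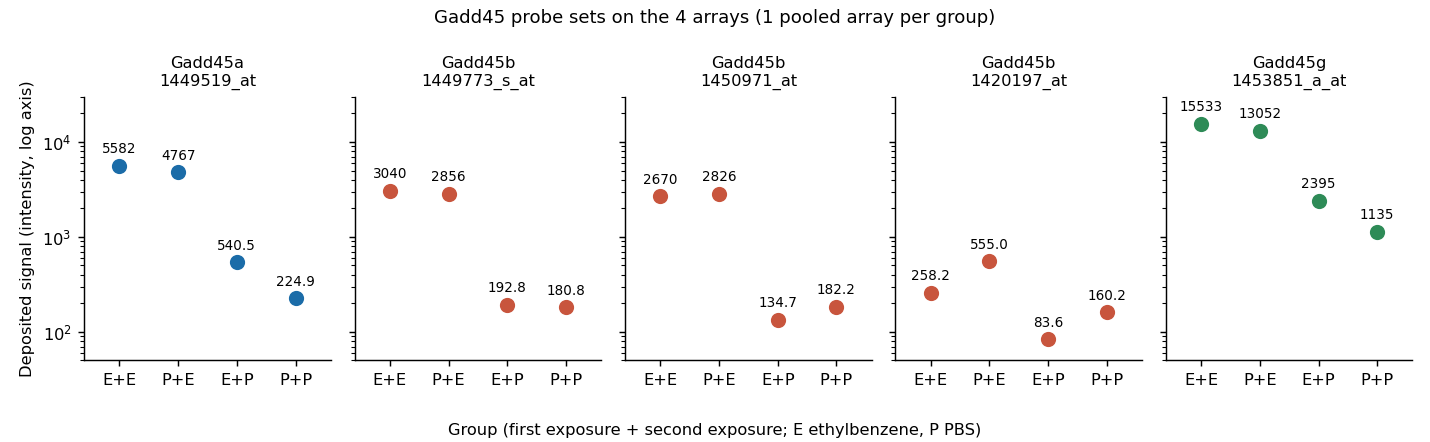
Deposited signal (intensity, log axis) of each Gadd45 probe set on the arrays E+E, P+E, E+P and P+P, 1 point per array and no error bars because each group is 1 pooled array. In each panel both arrays after a second exposure to ethylbenzene lie above both arrays after PBS, by less for 1420197_at.

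Gadd45a, the DNA damage gene of the family, had deposited signals of 5582 on E+E and 4767 on P+E, against 540.5 on E+P and 224.9 on P+P. The pair of ethylbenzene arrays lay close together and the pair of PBS arrays did not. Its log2 ratio was 4.10 for P+E over P+P and 3.29 for E+E over E+P. Taken directly from the deposited signals the folds were 21.2 and 10.3, larger than on the log2 scale with its pseudocount, which understates ratios of low signals.

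Gadd45g, the cytokine-responsive member, had deposited signals of 15533 on E+E and 13052 on P+E, against 2395 on E+P and 1135 on P+P. The order of the 4 arrays was that of Gadd45a. Its log2 ratio was 3.52 for P+E over P+P and 2.68 for E+E over E+P. At these signals the pseudocount had little weight, and the deposited signals gave folds of 11.5 and 6.49. The single probe set of Gadd45g carries the suffix _a_at, which marks probes shared by transcripts of 1 gene.

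Gadd45b, the member tied to CAR and liver regeneration, was measured by 3 probe sets that did not give 1 size of ratio. The probe set with the highest mean, 1449773_s_at, had deposited signals of 3040 on E+E and 2856 on P+E, against 193 on E+P and 181 on P+P. The suffix _s_at marks probes that can match transcripts of more than 1 gene. The second, 1450971_at, without that suffix, had 2670 on E+E and 2826 on P+E, against 135 on E+P and 182 on P+P. These probe sets gave log2 ratios of 3.62 and 3.61 for P+E over P+P, and 3.66 and 3.88 for E+E over E+P. The third, 1420197_at, was dimmer, with 258 on E+E and 555 on P+E, against 83.6 on E+P and 160.2 on P+P. Its log2 ratios were 1.47 and 1.14, in the same direction, which are folds of 2.76 and 2.21. It is assigned to Gadd45b by the annotation without a sequence accession, and its E+P signal lay below the filter level. With that signal set to the filter level the ratio of E+E over E+P became 0.83, short of 2-fold. Counted by probe set, 5 of 5 reached 2-fold higher in both ratios, against 2.8% of the 22551 probe sets past the filter.

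**Figure D2:**
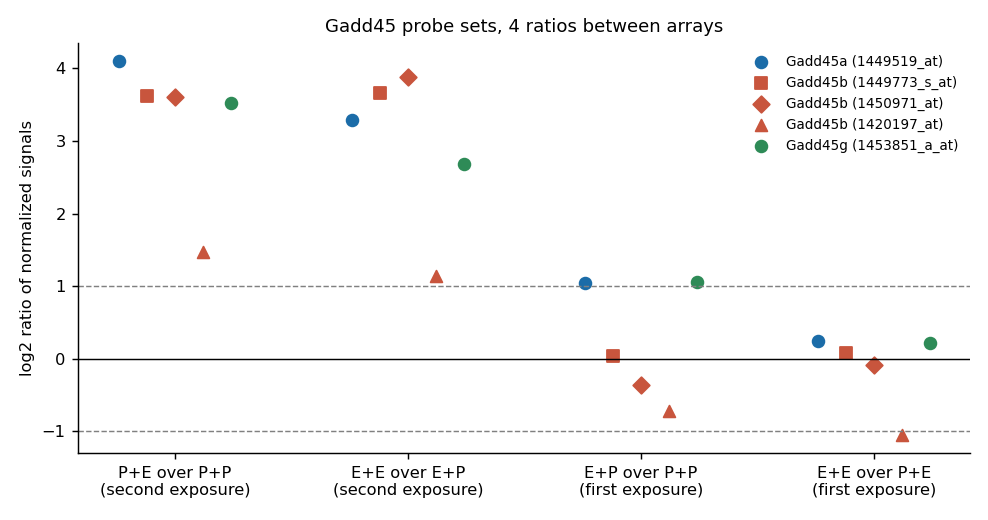
Log2 ratio of normalized signals (vertical axis) for each Gadd45 probe set in the 4 ratios between arrays (horizontal axis), with dashed lines at 2-fold. All 5 probe sets lie above the upper line in both second-exposure ratios, and in the first-exposure ratio E+P over P+P only Gadd45a (1.05) and Gadd45g (1.05) do.

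**Figure D3:**
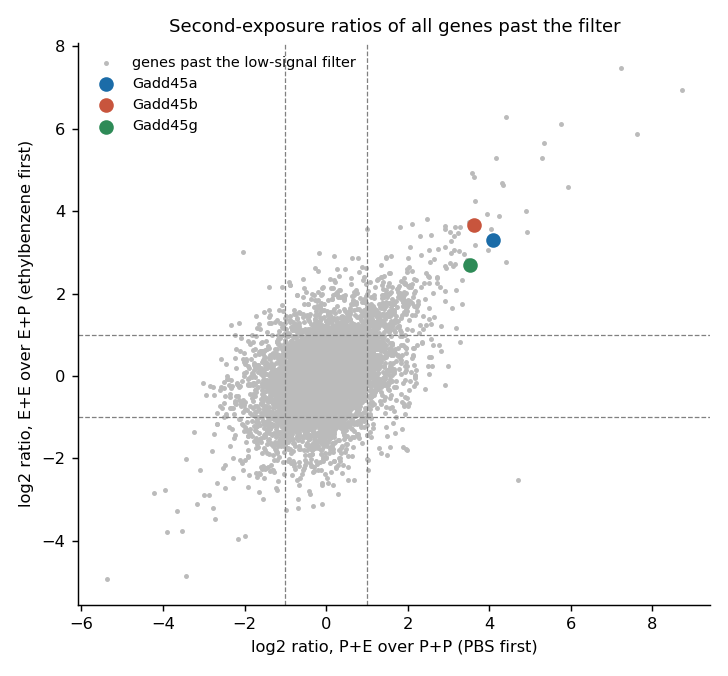
Log2 ratio of P+E over P+P (horizontal axis) and of E+E over E+P (vertical axis) for the 11513 genes past the filter (grey) and the 3 Gadd45 genes (coloured), with dashed lines at 2-fold. Gadd45a (4.10 and 3.29), Gadd45b (3.62 and 3.66) and Gadd45g (3.52 and 2.68) lie together at the upper right.

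The members differed from one another in the comparison of the first exposure, 7 days after it. In mice given PBS second, Gadd45a was 2.06-fold and Gadd45g 2.08-fold higher on E+P relative to P+P, whereas the probe set of Gadd45b with the highest mean was at 1.03-fold. The log2 ratios were 1.05, 1.05 and 0.04. By the rule of size 2 of 3 genes were higher, against 2.58% of genes past the filter, and Gadd45g ranked 243 and Gadd45a 256 from the top. Both lay just past 2-fold and fell short of it, at 0.84 for Gadd45a and 0.99 for Gadd45g, with a pseudocount at the median signal. The other Gadd45b probe sets were at -0.36 (1450971_at) and -0.72 (1420197_at). This ratio rests on the P+P array, which stood apart in its 18S controls, and the part of that array in the ratio was not tested. It also shares P+P with the ratio of P+E over P+P.

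On E+E against P+E, a comparison that uses neither E+P nor P+P, Gadd45a was 1.18-fold, Gadd45b 1.06-fold and Gadd45g 1.16-fold higher. The log2 ratios were 0.24, 0.08 and 0.21, and 0 of 3 genes reached 2-fold, where 3.98% of all genes were at least 2-fold higher. Of the 5 probe sets, 1420197_at of Gadd45b was at -1.05, just past 2-fold lower, where 4.52% of probe sets were, while the other Gadd45b probe sets were at 0.08 and -0.09. With signals as deposited it was -0.99.

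The second exposure was also compared between mice with and without a first one, as E+E over E+P minus P+E over P+P. It was -0.80 for Gadd45a, 0.04 for Gadd45b and -0.84 for Gadd45g on the log2 scale. None of the 3 differences reached 1 in size, as 7.03% of genes did downward and 8.08% upward, and 10.1% and 9.51% of genes had a lower difference than Gadd45a and Gadd45g. By arithmetic the difference equals E+E over P+E minus E+P over P+P, so it adds no separate result to those ratios. They were 0.24 and 1.05 for Gadd45a and 0.21 and 1.05 for Gadd45g. The difference holds the error of all 4 arrays and cannot be told from it.

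The genes with the most like pattern were found by the Euclidean distance between the 4 log2 values, each gene centred on its own mean, over 10983 other genes with a settled name. This describes 4 arrays and carries no test. Nearest to Gadd45a were Socs3, a feedback inhibitor of cytokine signalling (distance 0.24), Slc37a1 (0.47), the acute phase gene Orm2 (0.50), Gadd45g (0.59) and the metallothionein gene Mt1 (0.60). Socs3 had deposited signals of 15876 on E+E and 10821 on P+E, against 1312 on E+P and 624 on P+P, the same order of arrays as Gadd45a. Nearest to Gadd45g were the acute phase gene Serpina3n (0.34), the AP-1 gene Junb (0.43), Cpb1 (0.45), the immediate early gene Egr1 (0.45) and Rab30 (0.47). Nearest to Gadd45b were Ctrb1 (0.29), the thrombomodulin gene Thbd (0.32), the heme oxygenase gene Hmox1 (0.34), Inhbb (0.42) and Slc37a1 (0.42). Ctrb1, Cpb1 and Slc37a1 had signals below the filter level on both E+P and P+P, so their places rest on signals near background. With those signals raised to the filter level, an alternative chosen after the data were seen, Ctrb1 was number 47 from Gadd45b and Cpb1 number 118 from Gadd45g, and Slc37a1 was number 31 from Gadd45a and 22 from Gadd45b. The other named neighbours were then between number 1 and number 5. Within the family, Gadd45g was number 4 from Gadd45a, Gadd45a was number 11 from Gadd45g, and Gadd45b was number 9 from Gadd45a and number 32 from Gadd45g.

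Ctrb1 and Cpb1 encode digestive enzymes of pancreatic acinar cells. Of 9 acinar markers past the filter, 8 reached 2-fold higher in both second-exposure ratios, where 2.87% of all genes did, and Cela1 did not. Of the 8, 4 had signals below the filter level on both E+P and P+P and so passed the filter only through the arrays on which they were high, and 8 still reached 2-fold with such signals raised to that level. The summed normalized signal of 10 measured markers was 8590 on E+E and 8493 on P+E, against 2656 on E+P and 3154 on P+P. Cela1 made up most of the sums on E+P (1904) and P+P (2338), with 1764 on E+E and 1617 on P+E. Of 5 neutrophil markers past the filter, S100a8 (3.29 and 3.62) and S100a9 (3.62 and 4.83, the last 4.30 with E+P at the filter level) reached 2-fold higher in both. The granule gene Ngp was at -0.89 and 1.33, Camp at -1.51 and 0.05 (the first -0.69 with P+E at the filter level) and Mmp8 at 0.53 and 0.59, while Ltf, Elane and Mpo did not pass the filter. The summed signals of 8 neutrophil markers were 6704 on E+E and 4163 on P+E, against 795.4 on E+P and 1405 on P+P, and S100a8 and S100a9 made up most of the sums on E+E and P+E. Kupffer cell markers, 13 in number, had none past 2-fold in 1 direction in both ratios, and sums of 19677 on E+E and 17086 on P+E, against 29401 on E+P and 19670 on P+P. Of 10 sinusoidal endothelial markers 1, Lyve1 (1.56 and 2.01), reached 2-fold higher in both. The medians of that list were -0.22 and -0.39. On E+E over E+P 2 of its markers were at least 2-fold lower, where 6.75% of all genes were. Of 10 stellate cell markers and 3 T and NK cell markers past the filter none was past 2-fold in 1 direction in both. The source of the acinar transcripts in these liver samples was not tested, nor was the part of any of these cells in the Gadd45 ratios. In bulk RNA a change in the number of cells and in the RNA per cell cannot be told apart.

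Known partners of the GADD45 proteins, together with genes of the MAP kinase arm driven by them, were mixed in direction. Of 33 such genes past the filter, 12 were at least 2-fold apart in at least 1 second-exposure ratio. That is 36.4%, against 21.7% of all genes. Some of the 33, such as Mapkapk2, lie downstream, so the share is not that of binding partners alone. The lists were chosen with earlier results of these data known, and no enrichment was tested. Of 9 genes of the MAP kinase arm past the filter, 1 was at least 2-fold higher and 1 lower in both second-exposure ratios. Of all genes 2.87% were higher and 1.86% lower in both. The list medians were -0.03 and 0.04. Mapkapk2, a kinase that p38 activates, was higher, at 1.12 and 1.24. Map2k6, a kinase that activates p38, was lower, with deposited signals of 42.3 on E+E and 165 on P+E, against 607 on E+P and 526 on P+P. Its log2 ratios were -1.55 for P+E over P+P and -2.99 for E+E over E+P, the last -1.99 with E+E at the filter level. Map3k4, which binds all 3 GADD45 proteins, was at -1.08 and 0.04, and its 3 probe sets past the filter had 1 direction in the first ratio only. Mapk14, which encodes p38 alpha, was at 0.49 and 0.18, and Map2k3 at -0.15 and -0.57.

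Among 5 cell cycle partners past the filter, Cdkn1a was the single gene past 2-fold in 1 direction in both ratios. Its direction was upward, as for 2.87% of the whole set of filtered genes, while 1.86% went that far downward. Cdkn1a had deposited signals of 6721 on E+E and 7244 on P+E, against 89.2 on E+P and 125.5 on P+P. Its log2 ratios were 5.34 and 5.64, the last 5.39 with E+P at the filter level, larger than those of any Gadd45 gene. Unlike Gadd45a and Gadd45g it was not higher on E+P relative to P+P, at -0.40, or -0.15 with E+P at the filter level. Pcna was at 0.30 and 0.10, Cdk1 at -1.23 and 0.32, Cdk2 at -0.39 and 0.36 and Aurka at -0.45 and -0.08. The list medians were -0.39 and 0.32.

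Of 8 other binding proteins, Ppara, the fatty acid-sensing receptor, was at least 2-fold lower in both ratios (-1.14 and -1.54). None was higher in both. Of all genes 1.86% were lower and 2.87% higher in both. The list medians were -0.42 and -0.41. Nr1i3, which encodes CAR, had deposited signals of 1699 on E+E and 1998 on P+E, against 4796 on E+P and 3764 on P+P, and log2 ratios of -0.85 and -1.45. Rxra, the partner receptor of both, was at -0.51 and -0.51, and Ing1 at -1.02 and -0.51. The 2 probe sets of Rxra past the filter had 1 direction in the second of these ratios only. Of 11 DNA repair and demethylation partners past the filter, 0 were past 2-fold in 1 direction in both ratios, with medians of 0.06 and 0.22. Nearest to it was Apex1, a base excision repair enzyme, at 0.98 and 1.61. Apobec1 was at 0.45 and 1.32, and Tet3 at 0.85 and 1.06, the first 0.22 with P+P at the filter level.

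**Figure D4:**
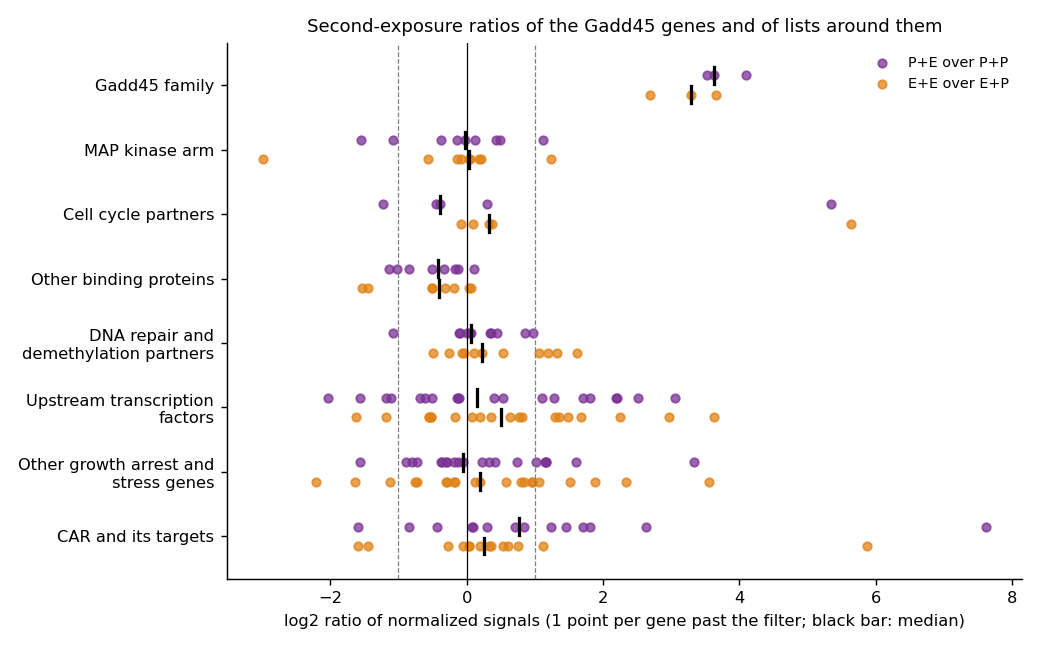
Log2 ratios of P+E over P+P and of E+E over E+P (horizontal axis) for the 3 Gadd45 genes and for the genes past the filter in 7 lists around them (rows), with medians as black bars and dashed lines at 2-fold. The Gadd45 genes lie between 2.68 and 4.10, and the list medians between -0.42 and 0.77.

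Factors that act on Gadd45 genes, nearly all of them transcription factors, split in direction. Of 20 past the filter, 7 were at least 2-fold higher and 2 lower in both ratios, where 2.87% and 1.86% of all genes were. The list was chosen with earlier results of these data known, so these shares cannot show an enrichment. The medians were 0.15 and 0.50. Egr1 was at 3.06 and 2.98, the AP-1 gene Jun at 2.52 and 2.25, and Stat3, which carries interleukin-6 signals, at 2.21 and 1.67. Atf3, a stress-induced factor, was at 1.82 and 3.62, or 1.63 and 2.39 with its PBS signals at the filter level. The other genes higher in both were Klf6 (2.19 and 1.49), Cebpb (1.11 and 1.30) and Zfp36 (1.28 and 1.35), an mRNA decay factor, and these were named after their values were seen. The genes lower in both, named after their values were seen, were Cebpa (-2.03 and -1.18), a hepatocyte differentiation factor, and Foxo3 (-1.18 and -1.62), a factor restrained by insulin signalling. Ddit3, a factor of the integrated stress response, was at -1.57 and -0.18.

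Of 21 other growth arrest and stress genes past the filter, 5 were at least 2-fold higher and 0 lower in both ratios. With low signals at the filter level 4 were higher in both. Of all genes 2.87% were higher and 1.86% lower in both. The list medians were -0.06 and 0.19. Btg2, an antiproliferative gene, was closest in size to the Gadd45 genes. Its deposited signals were 2188 on E+E and 2936 on P+E, against 404 on E+P and 243 on P+P, with log2 ratios of 3.33 and 2.33. Plk3 was at 1.17 and 1.88, Trp53inp1 at 1.15 and 1.51, and Ier3 at 1.01 and 3.56, but 0.86 and 2.34 with its PBS signals at the filter level. The fifth, named after its values were seen, was Ddit4 (1.16 and 1.06). Ppp1r15a, also called Gadd34, which is named like the family but is an unrelated phosphatase subunit, was at 0.74 and 0.85, short of 2-fold.

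CAR and its targets are a setting in which Gadd45b is known in liver, beside regeneration. Of 14 genes past the filter, 2 were at least 2-fold higher and 1 lower in both ratios. Of all genes 2.87% were higher and 1.86% lower in both. The list medians were 0.77 and 0.26. Cyp2b10, the typical CAR target, had deposited signals of 24975 on E+E and 32160 on P+E, against 382 on E+P and 114.5 on P+P, and log2 ratios of 7.62 and 5.87. Its log2 ratio of E+P over P+P was 1.35, beside 1.05 for Gadd45a, 1.05 for Gadd45g and 0.04 for Gadd45b. Cyp3a13 was at 1.81 and 1.12, Cyp2b9 at 2.63 and 0.76, and the cyclin gene Ccnd1 was lower at -1.59 and -1.59. Probe sets of related Cyp2b genes can share signal, so their values are uncertain to that extent.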

How the data were processed

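Liver RNA of each group was pooled before labelling, per the labels and the series' design text, and hybridised to 1 Affymetrix array per group. The deposited values were linear probe set intensities of 45101 probe sets per array, scaled by the authors, as their equal trimmed means show. How probes were summarised is not given in the sources used here. These intensities were quantile-normalized across arrays, and log2(signal + 43.2) was taken, where 43.2 is the 25th percentile of all deposited signals (Python 3.11.15, numpy 2.4.6, pandas 2.3.3). Names came from the platform annotation, with symbols updated by Entrez identifier in a RefSeq table (34741 of 34945 with 1 symbol, 932 with several left out). A gene was represented by its probe set of highest mean. With 1 array per group no test was run, at least 2-fold was the rule of size, and the number of arrays limits precision. The steps were tested on simulated arrays with known changes in probe sets of high signal and an assumed noise. Ratios of low signals and the noise of the real arrays were not covered by it. List genes for which no probe set had a single symbol were not analysed here. The 3 members, the lists and the rules were chosen with earlier results of these data known. Named genes were the members, up to 4 genes per list with the largest mean size of the second-exposure ratios, and the 5 nearest patterns per member. To these came 8 fixed genes. Trp53 had also been fixed but had no probe set with a single symbol. Alternatives changed the normalization, pseudocount, filter and choice of probe sets. The comparison of protein sequences was not run.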

Additional observations from a re-analysis of the deposited data

Results flagged for a closer look

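With 1 array per group, differences between ratios could not be tested. Among the named genes, 3 had ratios of the same exposure at least 2-fold in opposite directions. How many of all genes met this rule was not counted, so the 3 are described only and not read as unusual. Tet1, a DNA demethylation enzyme gene, was at -1.09 for P+E over P+P and 1.20 for E+E over E+P, and its deposited signals were 388 on E+E and 103 on P+E, against 132 on E+P and 239 on P+P. With its P+E signal at the filter level the first became -0.86. Ier3, a stress gene, was at -1.07 for E+P over P+P and 1.48 for E+E over P+E. Its signals on E+P and P+P lay below the filter level, and the first ratio was 0.00 with both set to it. Ngp, a neutrophil granule gene, was at -1.11 for E+P over P+P and 1.12 for E+E over P+E, with deposited signals of 421 on E+E and 178 on P+E, against 129.5 on E+P and 334 on P+P. No Gadd45 probe set met this description.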

How the results depend on the processing

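No paired analysis was possible because each group was 1 array. A value was taken as moved when it crossed 2-fold or shifted by at least 1.5-fold. Of 125 recomputed values of the Gadd45 probe sets 118 did neither, 7 moved and 0 changed direction while past 2-fold. Over the alternatives the ratio P+E over P+P ranged from 3.69 to 4.23 for Gadd45a, from 3.17 to 3.79 for Gadd45b and from 3.41 to 3.56 for Gadd45g, and E+E over E+P from 3.09 to 3.36, 3.22 to 3.82 and 2.64 to 2.70. With the pseudocount at the median signal E+P over P+P was 0.84 for Gadd45a and 0.99 for Gadd45g. The other 5 moves were of 1420197_at. Counts over all genes depended on the filter. At least 2-fold apart were 1523, 1573, 611 and 917 genes (P+E over P+P, E+E over E+P, E+P over P+P, E+E over P+E). They were 618, 668, 72 and 94 with the filter at the 75th percentile, 3620, 3646, 2512 and 3047 without a filter, 928, 947, 210 and 364 with the pseudocount at the median signal, and 393 and 587 in the first-exposure ratios with probe sets averaged. Higher in both second-exposure ratios were 330 genes, and 537 without a filter. In the lists, the genes past 2-fold in 1 direction in both second-exposure ratios were 1 and not 2 in the MAP kinase arm at the 75th percentile filter, 2 and not 1 among cell cycle partners without a filter, 3 and not 5 among growth arrest genes at the median pseudocount, and 1 and not 0 among DNA repair partners with signals as deposited, at a common 75th percentile, with a pseudocount of 16 and without _x_at or _s_at probe sets.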
